A study of Mus musculus with 12 samples.

Results

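The 5 genes of the NFAT family, Nfatc1, Nfatc2, Nfatc3, Nfatc4 and Nfat5, were followed by their symbols through 12 libraries of cells enriched from the mouse meninges. They are 5 of the 23238 gene symbols of the series, and each symbol had 1 entry per library. All 5 passed the filter on low values, which asked for 10 or more on the linear scale in 4 or more libraries. They were chosen by name.

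The libraries fall by their titles into 3 groups of 4, AD_TG, AD_B6 and SJL_B6. What the abbreviations stand for is not spelled out, no transgene or promoter is named, and the labels give the strain C57BL/6, the tissue meninges and an age of 20 weeks for every sample. Magnetic sorting was used to obtain meningeal lymphatic endothelial cells, the cells lining the lymph vessels of the brain's coverings, from 3 to 4 mice per strain. Nothing in the labels ties the libraries of a group to separate mice, so p-values measure only the spread between these libraries, which may be technical. The titles of AD_TG and AD_B6 differ in their second part, those of AD_B6 and SJL_B6 in their first part, and those of AD_TG and SJL_B6 in both. The series title concerns raised DSCR1, the protein encoded in mice by Rcan1, which binds and inhibits calcineurin.

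NFAT proteins are transcription factors that share a DNA-binding domain related to that of NF-kappa B. In resting cells NFATc1 to NFATc4 are held in the cytoplasm by phosphorylation. When calcium rises, calmodulin activates the phosphatase calcineurin, which strips these phosphates so that the factors enter the nucleus, where they often bind DNA beside AP-1. NFAT5 is the oldest branch of the family. It has no calcineurin docking region, and is known as the factor that raises transport and chaperone genes when cells meet high salt. In lymphatic endothelium NFATc1 acts with Prox1 and Foxc2 in the growth of collecting vessels and valves. The measured transcripts report how much NFAT mRNA was present and not whether the proteins were dephosphorylated or in the nucleus.

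NFAT proteins bind DNA at a core written ggaaa on one strand and tttcc on the other. Promoter windows of 4 of the 5 genes, all but Nfatc1, were taken from RefSeq (GRCm38.p6). Each window ran from 250 bases before to 50 bases after a transcription start. The promoter of Nfatc1 was left out and not examined, which does not mean that RefSeq lacks it. Shown are the windows of Nfatc4, the member that varied most between libraries, and of Nfat5, the member that varied least. Matches to the core on either strand are in capitals, and the sequences run 5′ to 3′ on the strand of the gene.
Nfatc4, chr14:55824545-55824844, plus strand: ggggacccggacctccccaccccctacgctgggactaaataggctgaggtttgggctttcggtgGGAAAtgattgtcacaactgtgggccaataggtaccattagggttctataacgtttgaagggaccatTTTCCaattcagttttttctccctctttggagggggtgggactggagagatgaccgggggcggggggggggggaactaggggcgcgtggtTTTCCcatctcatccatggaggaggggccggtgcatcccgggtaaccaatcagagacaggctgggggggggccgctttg
Nfat5, chr8:107293220-107293519, plus strand: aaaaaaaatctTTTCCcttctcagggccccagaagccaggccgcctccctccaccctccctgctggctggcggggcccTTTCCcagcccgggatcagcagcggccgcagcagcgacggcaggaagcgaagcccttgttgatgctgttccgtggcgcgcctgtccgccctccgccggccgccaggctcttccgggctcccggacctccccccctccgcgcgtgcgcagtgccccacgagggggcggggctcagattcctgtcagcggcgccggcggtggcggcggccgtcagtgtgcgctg
The Nfatc4 window holds 3 matches and the Nfat5 window 2. Of all 32851 promoter windows of this length in the same table, 61.3% hold at least 1 match, 26.7% hold 2 or more and 9.4% hold 3 or more. The other 4 windows, 2 of Nfatc2 and 2 of Nfatc3, hold 3, 1, 1 and 0 matches. Core matches are therefore common in promoters in general, and a match describes letters in the window, not binding.

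The deposited values are log2(x + 1) of scaled amounts per gene. Reads of a gene were taken as present where 2 to the power of the value, less 1, came to 0.3 or more, because some libraries list their other genes slightly above 0. On the linear scale the value of 1 read was estimated from the even steps of the low values, at 0.698 to 1.75 per library, and the estimated reads per library ran from 4021138 to 9307807. Genes with reads numbered 11019 to 12018 in AD_TG, 8748 to 11449 in AD_B6 and 10860 to 12217 in SJL_B6, with the lowest number in AD_B6 replicate 3. Of the genes tested, 87.1% of values had reads in AD_TG, 78.4% in AD_B6 and 85.7% in SJL_B6, so a gene without reads was more frequent in AD_B6 generally. The sorted cell type was checked against its markers. Prox1, the defining factor of lymphatic endothelium, had reads in 0, 0 and 2 libraries of AD_TG, AD_B6 and SJL_B6. Of the other 9 lymphatic markers listed, Pdpn, Nr2f2, Nrp2 and Foxc2 had reads in all 12 libraries, Lyve1 in 11, Itga9 and Ccl21a in 9, Flt4 in 6 and Reln in 4. The 10 together summed to 3311 to 4084 on the linear scale in AD_TG, 3108 to 4278 in AD_B6 and 4029 to 5961 in SJL_B6. The 6 choroid plexus markers, genes of the tissue that makes cerebrospinal fluid, summed to 126053 to 555902 in AD_TG, 19856 to 792607 in AD_B6 and 14842 to 461827 in SJL_B6. All 12 macrophage markers had reads in all 12 libraries, and their summed linear level spanned 21754 to 31652 in AD_TG, 15459 to 34701 in AD_B6 and 27513 to 42723 in SJL_B6. Of the 9 T and NK cell markers, Cd3e and Cd3g had no reads in any library, Cd4, which macrophages can also carry, had reads in 10, and the other 6 in 1 to 3. Their sum spanned 17.7 to 594 in AD_TG, 1.37 to 655 in AD_B6 and 21.9 to 278 in SJL_B6. In such bulk samples fewer cells of a type and less RNA per cell cannot be told apart, and which cells carried the NFAT transcripts was not tested.

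**Figure D1:**
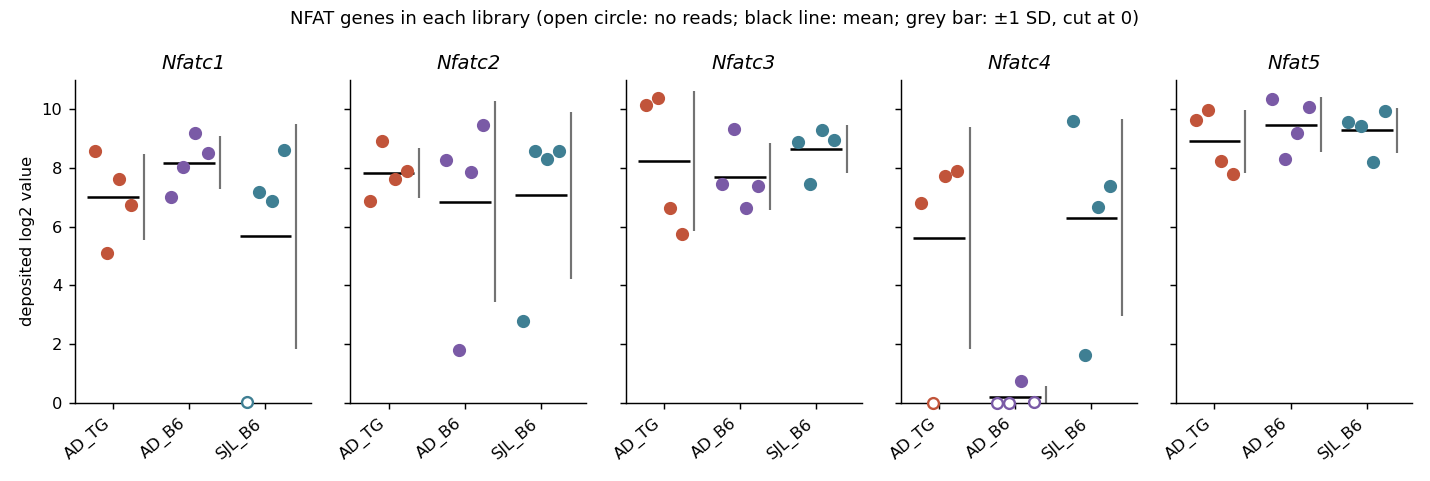
Deposited log2 value of each NFAT gene (vertical axis) in the 4 libraries of AD_TG, AD_B6 and SJL_B6. Each circle is a library, open where the gene had no reads, the black line is the group mean and the grey bar 1 SD to either side, ended at 0. Nfat5 lies between 7.78 and 10.34 in all 12 libraries, whereas Nfatc4 is at or below 0.75 in all 4 AD_B6 libraries.

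Nfatc4 showed the widest difference between groups. It is the member best known from the heart, where calcineurin drives growth of heart muscle through it, and from perivascular tissue. In AD_TG it stood at a log2 value of 6.82, 0, 7.73 and 7.90 in replicates 1 to 4. In AD_B6 it was listed at 0, 0, 0.75 and 0.031. In SJL_B6 it stood at 9.58, 1.63, 6.65 and 7.37. The estimated reads were 63.8, 0, 206 and 291 in AD_TG, 0.97 in AD_B6 replicate 3 and 0 in its other libraries, and 644, 2.98, 57.8 and 194 in SJL_B6. The AD_B6 and SJL_B6 libraries did not overlap, while AD_TG replicate 2, without reads, overlapped AD_B6.

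The mean log2 value of Nfatc4 was 5.61 ± 3.77 in AD_TG, 0.19 ± 0.37 in AD_B6 and 6.31 ± 3.36 in SJL_B6 (SD, n = 4). AD_TG differed from AD_B6 by 5.42 (SE 2.43, 95% interval 0.40 to 10.44), with an unadjusted p of 0.0356 and a Benjamini-Hochberg adjusted p of 0.871 in limma. The AD_TG library was the higher one in 12 of the 16 pairs of libraries. AD_B6 differed from SJL_B6 by -6.11 (SE 2.43, 95% interval -11.14 to -1.09), with an unadjusted p of 0.0191 and an adjusted p of 0.869 in limma, and was the lower one in all 16 pairs. AD_TG and SJL_B6 differed by -0.70 (SE 2.43, 95% interval -5.72 to 4.33). The first 2 differences share the AD_B6 libraries and are not independent of each other. Neither passed the threshold of an adjusted p below 0.05 over the 11955 genes tested. With 1 read in the whole of AD_B6 the size of either difference rests on the pseudocount, and with 10 in place of 1 they were 3.15 and -3.51.

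**Figure D2:**
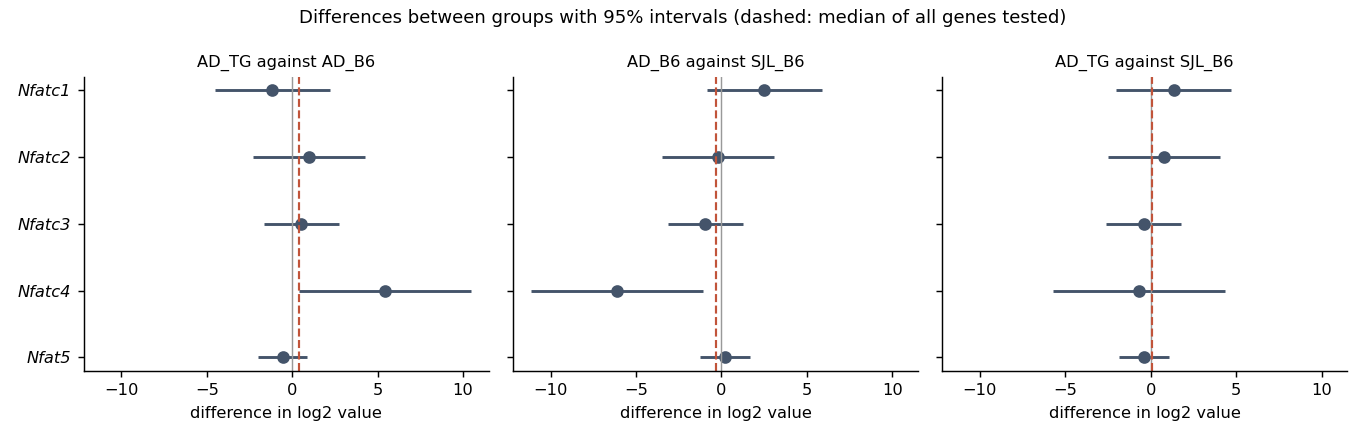
Difference in deposited log2 value for each NFAT gene in the 3 comparisons, first group minus second. Points are limma estimates, lines their 95% intervals, and the dashed line the median over the 11955 genes tested. Nfatc4 has the only intervals that leave out 0, at 5.42 for AD_TG against AD_B6 and -6.11 for AD_B6 against SJL_B6, and neither passed the adjusted threshold.

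These values of Nfatc4 have to be read against all genes. In limma 0 of 11955 genes passed in each of the 3 comparisons, a share of 0.0%. At an unadjusted p below 0.05 stood 5.35% of genes for AD_TG against AD_B6, 519 higher (4.34%) and 120 lower (1.0%). For AD_B6 against SJL_B6 it was 5.41%, 163 higher (1.36%) and 484 lower (4.05%), and for AD_TG against SJL_B6 2.99%, 220 higher (1.84%) and 137 lower (1.15%). Scaling all libraries to 1 total gave 449 higher and 154 lower for AD_TG against AD_B6, and 211 higher and 437 lower for AD_B6 against SJL_B6. That total, 1000000, lies below the deposited totals, so the 1 added before the log weighs more as well. A pseudocount of 10 without scaling gave 488 and 139 in the first comparison, and 181 and 479 in the second. After centring each library on its mean over the genes tested, the split turned round, to 232 higher and 519 lower for AD_TG against AD_B6, and 419 higher and 286 lower for AD_B6 against SJL_B6. Centring shifts every gene of a comparison by the same amount. The groups did not overlap for 2.88% of genes in AD_TG against AD_B6, 2.82% in AD_B6 against SJL_B6 and 2.53% in AD_TG against SJL_B6. Of the genes tested 228 (1.91%) lay lower in every AD_B6 library than in any SJL_B6 library, Nfatc4 among them, and 0.912% lay higher. A pattern of reads in no more than 1 AD_B6 library and in 3 or 4 libraries of both other groups, as Nfatc4 had, was held by 359 of the 11955 genes (3.0%). The same pattern with AD_TG as the group lacking reads held for 76 genes (0.64%), and with SJL_B6 for 82 (0.69%).

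Features of the libraries also differed between the groups. In replicates 1 to 4 the number of genes with reads was 12018, 11019, 11579 and 11530 in AD_TG, 11449, 10520, 8748 and 10438 in AD_B6, and 12217, 11156, 11489 and 10860 in SJL_B6. The groups overlapped in this number, with SJL_B6 replicate 4 below AD_B6 replicate 1. AD_B6 replicate 3, with the fewest genes, had 8911496 estimated reads in all. With the number of genes with reads as a covariate, an alternative chosen after seeing the data, Nfatc4 differed by 4.09 for AD_TG against AD_B6 and by -4.89 for AD_B6 against SJL_B6 (adjusted p of 0.942 and 0.992 in limma). The unadjusted p was then 0.197 and 0.114, so neither stayed below 0.05. After centring it was 0.0606 and 0.0286, and with 1 library left out it ran from 0.0082 to 0.092 for AD_TG against AD_B6 and from 0.0068 to 0.062 for AD_B6 against SJL_B6. Of the 9 marker lists, 3 are given for every library. The 8 genes of mural cells, the contractile cells around vessels, summed on the linear scale to 2223, 1538, 2378 and 1907 in AD_TG replicates 1 to 4, 1202, 599, 3602 and 1365 in AD_B6, and 1593, 1921, 2246 and 2054 in SJL_B6. Of these 8, Acta2, Tagln and Pdgfrb had reads in all 12 libraries, Myh11 in 9, Rgs5 in 8, Des in 7, and Cspg4 and Cnn1 in 4. The 10 pan-endothelial markers summed to 1752, 914, 1600 and 2051 in AD_TG, to 1059, 857, 2007 and 1187 in AD_B6, and to 2131, 976, 2287 and 1334 in SJL_B6. AD_B6 replicates 1, 2 and 4 and AD_TG replicate 2 lacked Nfatc4 reads. They had the lowest mural sums, and their pan-endothelial sums were below those of all other libraries but SJL_B6 replicate 2, with 2.98 reads of Nfatc4. The order was not particular to vessel cells. Macrophage sums were 28550, 15459 and 15629 in those AD_B6 replicates and 21754 in AD_TG replicate 2. These lay below all other libraries but SJL_B6 replicate 3, at 27513 and with 57.8 reads of Nfatc4. Other lists did not follow this order. AD_B6 replicate 4 had the highest choroid plexus sum, 792607, and the highest T and NK cell sum, 655. AD_B6 replicate 1 had the highest neutrophil sum, 19647. Its lymphatic sum was 4095, against 3348 and 3311 in AD_TG replicates 3 and 4, which had Nfatc4 reads. AD_B6 replicate 3 had the highest mural sum, a pan-endothelial sum of 2007 and about 1 read of Nfatc4. The 8 fibroblast markers, of the cells that make up much of the meninges, summed to 24171, 8634, 44945 and 24882 in AD_TG, to 14849, 12669, 56698 and 21991 in AD_B6, and to 14373, 31399, 30138 and 24105 in SJL_B6. What part the number of genes with reads or these cell types had in the Nfatc4 values was not tested.

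**Figure D3:**
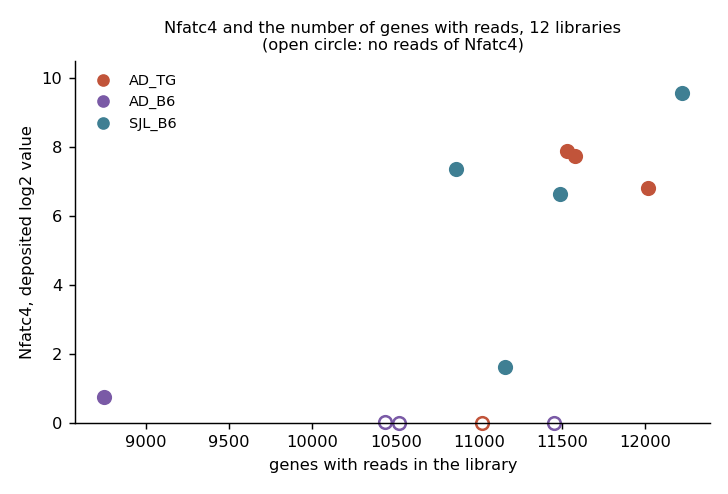
Deposited log2 value of Nfatc4 (vertical axis) against the number of genes with reads (horizontal axis) in the 12 libraries, coloured by group, with open circles where Nfatc4 had no reads. AD_B6 replicate 1, with 11449 genes with reads, is without Nfatc4 reads, as are AD_TG replicate 2 and AD_B6 replicates 2 and 4, and the library with the most genes with reads, SJL_B6 replicate 1 with 12217, has the highest value, 9.58.

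Nfatc1, the member tied to lymphatic and heart valves and to osteoclasts, was without reads in 1 library. Its log2 values were 8.58, 5.10, 7.62 and 6.72 in AD_TG, 7.01, 8.02, 9.18 and 8.51 in AD_B6, and 0.019, 7.16, 6.86 and 8.62 in SJL_B6. SJL_B6 replicate 1, the library without Nfatc1 reads, was also 1 of the 2 with reads of Prox1. The 3 groups overlapped. Group means were 7.0045 ± 1.48 in AD_TG, 8.18 ± 0.92 in AD_B6 and 5.67 ± 3.84 in SJL_B6 (SD, n = 4). In the order of these means, with AD_B6 highest and SJL_B6 lowest, neighbours did not differ beyond their spread. The difference of AD_TG from AD_B6 was -1.18 (SE 1.63, 95% interval -4.54 to 2.18, adjusted p = 0.933 in limma). AD_B6 differed from SJL_B6 by 2.52 (95% interval -0.84 to 5.88, adjusted p = 0.869 in limma), and by 0.63 without SJL_B6 replicate 1. AD_TG differed from SJL_B6 by 1.34 (95% interval -2.02 to 4.70), and by -0.54 without that library.

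Nfatc2, the member most used by T cells and mast cells to switch on cytokine genes, had reads in all 12 libraries. It stood at 6.86, 8.91, 7.63 and 7.88 in AD_TG, at 8.28, 1.81, 7.86 and 9.46 in AD_B6, with 2.80, 8.56, 8.32 and 8.57 in SJL_B6. AD_B6 replicate 2 and SJL_B6 replicate 1 stood apart, with 2.99 and 5.01 estimated reads, while the other libraries held between 65.8 and 618. Group means were 7.82 ± 0.84 in AD_TG, 6.85 ± 3.43 in AD_B6 and 7.06 ± 2.85 in SJL_B6 (SD, n = 4). The differences were 0.97 (95% interval -2.32 to 4.26) for AD_TG against AD_B6, -0.21 (-3.50 to 3.08) for AD_B6 against SJL_B6 and 0.76 (-2.53 to 4.05) for AD_TG against SJL_B6, with adjusted p-values of 0.948, 0.998 and 0.999 in limma. The part of T cells or other cells in these values was not tested.

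Nfatc3, a widely expressed member that acts in the thymus and in smooth muscle, had reads in all 12 libraries with a lowest estimate of 65.0 reads. AD_TG split into 10.14 and 10.39 in replicates 1 and 2 and 6.64 and 5.76 in replicates 3 and 4. AD_B6 held 7.45, 9.33, 6.64 and 7.39 and SJL_B6 held 8.89, 7.44, 9.28 and 8.96. Both the highest and the lowest values of the 12 libraries lay in AD_TG. Group means were 8.23 ± 2.38 in AD_TG, 7.70 ± 1.15 in AD_B6 and 8.64 ± 0.82 in SJL_B6 (SD, n = 4). The difference was 0.53 for AD_TG against AD_B6 (95% interval -1.66 to 2.72), -0.94 for AD_B6 against SJL_B6 (-3.14 to 1.25) and -0.41 for AD_TG against SJL_B6 (-2.60 to 1.78), with adjusted p-values of 0.961, 0.934 and 0.999 in limma. The annotation places Esrp2, an epithelial splicing regulator, over part of Nfatc3 on the opposite strand, and whether counting used strand is not stated. Esrp2 had reads in 1 AD_TG library and 1 AD_B6 library, at no more than 2.26 on the log2 scale.

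Nfat5, the tonicity factor, was the steadiest member. It stood at 9.64, 9.97, 8.24 and 7.78 in AD_TG, at 10.34, 8.29, 9.19 and 10.07 in AD_B6, with 9.57, 9.41, 8.19 and 9.94 in SJL_B6. Every library held at least 168 estimated reads of it. Over the 12 libraries its SD was 0.87, against 1.498 for Nfatc3, 2.41 for Nfatc2, 2.45 for Nfatc1 and 3.89 for Nfatc4. Mean levels ran in the reverse order, at 9.22, 8.19, 7.24, 6.95 and 4.04. Of all genes tested, whatever their level, 15.4% had a lower SD than Nfat5 and 96.6% a lower SD than Nfatc4. The SD was not compared among genes of like level. Group means were 8.90 ± 1.06 in AD_TG, 9.47 ± 0.93 in AD_B6 and 9.28 ± 0.76 in SJL_B6 (SD, n = 4). All 3 groups overlapped. AD_TG differed from AD_B6 by -0.57 (95% interval -2.02 to 0.89), AD_B6 from SJL_B6 by 0.19 (-1.26 to 1.65) and AD_TG from SJL_B6 by -0.37 (-1.83 to 1.08), with adjusted p-values of 0.922, 0.991 and 0.999 in limma. Even for this member the intervals leave room for a difference of more than 1 on the log2 scale in each comparison.

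In the family as a whole, 3 of the 5 genes were higher and 2 lower in AD_TG than in AD_B6 (2 and 3 after centring), with a median difference of 0.53 beside 0.41 over all genes tested. In AD_B6 against SJL_B6 2 were higher and 3 lower (3 and 2 after centring), with a median of -0.21 beside -0.31, and in AD_TG against SJL_B6 2 were higher and 3 lower, with a median of -0.37 beside 0.08. Of the 20 values of the 5 genes in each group, 19 had reads in AD_TG, 17 in AD_B6 and 19 in SJL_B6. The summed linear level of the 5 genes was 2529, 2855, 1004 and 849 in AD_TG, 1906, 1214, 1493 and 2305 in AD_B6 and 2003, 1374, 1443 and 2415 in SJL_B6. These sums overlapped, with means of 1809 ± 1030 in AD_TG, 1730 ± 478 in AD_B6 and 1809 ± 493 in SJL_B6 (SD, n = 4). They made up 0.0124 to 0.0395% of the linear total of a library.

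No pair of members was closely correlated. Over the 12 libraries, which share depth and cell makeup within each library, the 10 pairs of members had Pearson correlations of the log2 values between -0.37 (Nfatc4 with Nfat5) and 0.44 (Nfatc1 with Nfatc2), and the pair with the highest Pearson value had a Spearman correlation of 0. Each member was also compared with the genes that had reads in all 12 libraries, 4949 or 4950 of them. Closest to Nfatc3 was Smdt1, a subunit of the mitochondrial calcium uniporter, with a Pearson correlation of 0.84 (Spearman 0.88, and 0.82 by Pearson without the 2 libraries farthest from the median of Nfatc3), followed by Mgea5 (0.80, then 0.73) and Gtf3c1 (0.79, then 0.66). Closest to Nfat5 was Ckmt1, a mitochondrial creatine kinase (Pearson 0.85, Spearman 0.77, and 0.72 without the 2 farthest libraries), followed by Wdr43 (0.75, then 0.64) and Acvrl1 (0.74, then 0.47). Kcnj2, a potassium channel, had 0.94 with Nfatc1 and 0.52 without the 2 farthest libraries, followed by Ttyh3 (0.93, then 0.56) and Prdx3 (0.90, then 0.68). Napg, a vesicle fusion factor, had 0.95 with Nfatc2 and then 0.50, followed by Twsg1 (0.93, then 0.69) and Dguok (0.92, then -0.10). For each member these are the 3 highest of the genes compared, and they describe only these libraries.

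The genes around NFAT were taken in the order of the pathway. Of the 13 genes of calcium entry, all tested, 9 were higher and 4 lower in AD_TG than in AD_B6. Their median was 0.58 beside 0.41 over all genes. After centring 5 were higher and 8 lower, and with the number of genes with reads as a covariate 9 and 4. Without AD_B6 replicate 3 it was 9 and 4. In AD_B6 5 were higher and 8 lower than in SJL_B6 (median -0.14 beside -0.31), turned round by centring to 8 and 5, and in AD_TG 9 were higher and 4 lower than in SJL_B6 (median 0.45 beside 0.08). None passed in any comparison. Stim2, a calcium sensor of the endoplasmic reticulum, had the smallest unadjusted p in both comparisons with AD_B6. It stood at 9.20, 11.30, 10.76 and 10.25 in AD_TG, at 9.02, 7.50, 0 and 10.51 in AD_B6, with 11.16, 9.36, 9.09 and 10.83 in SJL_B6. AD_TG differed from AD_B6 by 3.62 (SE 1.35, adjusted p = 0.871 in limma) and AD_B6 from SJL_B6 by -3.35 (SE 1.35, adjusted p = 0.869 in limma). Without AD_B6 replicate 3, listed at 0, these were 1.37 and -1.10, and with the number of genes with reads as a covariate they were 0.50 and -0.498. In AD_TG against SJL_B6 the smallest p was that of Calm2, a calmodulin gene, at 11.66 ± 0.22 in AD_TG and 10.73 ± 0.74 in SJL_B6 (SD, n = 4), without overlap and with an adjusted p of 0.999 in limma. The difference was 0.93, and 0.61 without SJL_B6 replicate 2. Of all genes tested, 1.46% lay higher without overlap in that comparison.

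Of the 11 genes of calcineurin and its regulators 10 were tested, all but Ppp3r2. In AD_TG 1 was higher and 9 were lower than in AD_B6, with a median of -0.47 beside 0.41 over all genes, and none passed. After centring 1 was higher and 9 lower, and with all libraries scaled to 1 total 0 and 10. With the number of genes with reads as a covariate 5 were higher and 5 lower, and without AD_B6 replicate 3 2 and 8. Rcan2, a relative of Rcan1, had the smallest unadjusted p, with 6.99, 0, 7.83 and 0 in AD_TG and 7.49, 9.37, 5.56 and 7.99 in AD_B6, a difference of -3.90 (SE 2.44, adjusted p = 0.871 in limma). In AD_B6 against SJL_B6 6 were higher and 4 lower (median 0.4955 beside -0.31). Centring gave 9 and 1, and the covariate 5 and 5. Ppp3cb, a catalytic subunit, had 0, 10.40, 8.66 and 7.81 in AD_B6 and 9.34, 8.45, 8.77 and 9.15 in SJL_B6, a difference of -2.21 (SE 1.52), which was 0.031 without AD_B6 replicate 1 and -4.38 with the covariate. In AD_TG against SJL_B6 3 were higher and 7 lower (median -0.42 beside 0.08). Akap5, which anchors calcineurin, stood at 12.65, 12.84, 11.40 and 12.81 in AD_TG and at 13.10, 12.98, 13.15 and 12.98 in SJL_B6, lower in every AD_TG library (adjusted p = 0.999 in limma). The difference was -0.62, and -0.28 without AD_TG replicate 3. A position without overlap in that direction was held by 1.07% of all genes.

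**Figure D4:**
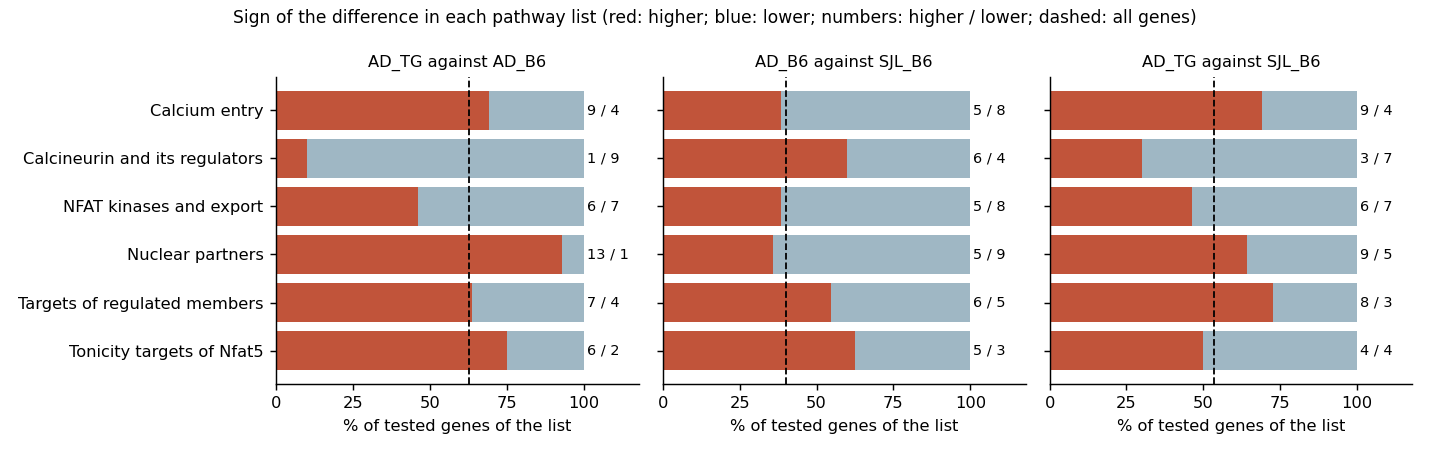
Share of the tested genes of each pathway list (horizontal axis, percent) that were higher (red) or lower (blue) in the first group of each comparison, with the numbers of genes at the right and the share of all genes tested that were higher as a dashed line. Calcineurin and its regulators had 1 of 10 genes higher and nuclear partners 13 of 14 in AD_TG against AD_B6, where 62.8% of all genes tested were higher, and no gene of any list passed the adjusted threshold. With the number of genes with reads as a covariate the calcineurin list had 5 genes higher and 5 lower, and the nuclear partners 12 and 2. After centring the calcineurin list had 1 higher and 9 lower, and the nuclear partners 8 and 6. Without AD_B6 replicate 3 the calcineurin list had 2 higher and 8 lower, and the nuclear partners 9 and 5.

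The kinases that rephosphorylate NFAT, with the Homer scaffolds that compete with calcineurin for NFAT in T cells and the exportin Xpo1, numbered 14 genes, of which Dyrk2 was not tested. In AD_TG 6 were higher and 7 lower than in AD_B6 (median -0.09 beside 0.41). Centring gave 4 and 9, and the covariate 8 and 5, as did leaving out AD_B6 replicate 3. In AD_B6 5 were higher and 8 lower than in SJL_B6 (median -0.335 beside -0.31). Centring gave 8 and 5, and the covariate 6 and 7. None passed. Homer2 had the smallest unadjusted p of any listed gene. It stood at 8.15, 8.04, 8.19 and 8.98 in AD_TG, at 4.87, 4.00, 1.62 and 0.031 in AD_B6, with 7.75, 8.495, 7.20 and 7.65 in SJL_B6. AD_B6 lay below both other groups without overlap, as Nfatc4 did against SJL_B6. Homer2 in AD_TG differed from AD_B6 by 5.71 (SE 1.67, unadjusted p = 0.00217, adjusted p = 0.871 in limma) and AD_B6 from SJL_B6 by -5.14 (SE 1.67, unadjusted p = 0.00499, adjusted p = 0.869 in limma). With a pseudocount of 10 these differences were 4.17 and -3.63, and with the covariate 4.78 and -4.29. AD_B6 replicate 4 had no reads of Homer2. Of all genes tested, 1.95% lay higher in AD_TG than in AD_B6 without overlap, and 1.91% lower in AD_B6 than in SJL_B6. The share that lay below both other groups at once was not counted. In AD_TG against SJL_B6 6 were higher and 7 lower (median -0.15 beside 0.08), and Homer3 had the smallest p, at 8.02 ± 1.49 in AD_TG and 5.29 ± 3.64 in SJL_B6 (SD, n = 4, adjusted p = 0.999 in limma). The difference was 2.72, and 0.98 without SJL_B6 replicate 3, listed at 0.07.

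Of the 18 nuclear partners 14 were tested, without Fosl1, Foxp3, Gata3 and Mef2d. In AD_TG 13 were higher and 1 lower than in AD_B6, with a median of 0.65 beside 0.41. After centring each library on its mean over the genes tested 8 were higher and 6 lower. With the covariate 12 were higher and 2 lower, as they were with all libraries scaled to 1 total. Without AD_B6 replicate 3, the library with the fewest genes with reads, 9 were higher and 5 lower (median 0.38 beside 0.22). None passed. Fosl2, an AP-1 subunit, stood at 9.13, 10.63, 10.48 and 11.33 in AD_TG, at 8.82, 9.995, 7.21 and 7.89 in AD_B6, with 8.38, 9.21, 9.86 and 9.77 in SJL_B6. AD_TG differed by 1.91 (SE 0.69) from AD_B6 and by 1.09 (SE 0.69) from SJL_B6, with adjusted p-values of 0.871 and 0.999 in limma. In AD_B6 5 were higher and 9 lower than in SJL_B6 (median -0.37 beside -0.31). Centring gave 7 and 7, and the covariate 4 and 10. Crebbp, a histone acetyltransferase recruited by NFAT, stood at 5.95, 9.92, 4.31 and 8.88 in AD_B6 and between 10.09 and 10.29 in SJL_B6, without overlap (difference -2.94, SE 0.94, unadjusted p = 0.00434, adjusted p = 0.869 in limma). Without AD_B6 replicate 3 the difference was -1.96, and 1.91% of all genes lay lower without overlap in that comparison. In AD_TG against SJL_B6 9 were higher and 5 lower (median 0.57 beside 0.08).

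Of 18 known targets of the calcineurin-regulated members 11 were tested, and the T cell targets Il2, Il4, Ifng, Fasl and Cd40lg were below the filter, as were Tnf and Sele. In AD_TG 7 were higher and 4 lower than in AD_B6 (median 0.34 beside 0.41), and none passed. Centring turned this to 3 higher and 8 lower, and the covariate gave 8 and 3. Without AD_B6 replicate 3 it was 6 and 5. Nr4a3, an immediate early nuclear receptor, stood at 3.91, 9.24, 7.36 and 8.99 in AD_TG, at 6.30, 7.80, 0 and 0.031 in AD_B6, with 4.94, 7.46, 7.71 and 8.02 in SJL_B6. For Nr4a3 the difference was 3.84 for AD_TG against AD_B6 (SE 2.09) and -3.498 for AD_B6 against SJL_B6 (SE 2.09), with adjusted p-values of 0.871 and 0.869 in limma. Without AD_B6 replicate 3, listed at 0, these were 2.66 and -2.32. In AD_B6 6 were higher and 5 lower than in SJL_B6 (median 0.10 beside -0.31). Centring gave 8 and 3, and the covariate 5 and 6. In AD_TG 8 were higher and 3 lower than in SJL_B6 (median 0.40 beside 0.08). Egr3, an early response factor, stood at 5.79, 7.41, 0.003 and 7.14 in AD_TG and had no reads in SJL_B6 (unadjusted p = 0.0283, adjusted p = 0.999 in limma). In AD_B6 it stood at 0, 7.84, 0 and 3.35, with the highest value of the 12 libraries. The difference of AD_TG from SJL_B6 was 5.06, and as low as 2.68 under the alternatives that kept all libraries or only those compared.

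Of 9 tonicity targets of Nfat5 8 were tested, all but Slc6a12. In AD_TG 6 were higher and 2 lower than in AD_B6 (median 0.24 beside 0.41), and none passed. Centring turned this to 1 higher and 7 lower, and the covariate gave 5 and 3. Without AD_B6 replicate 3 it was 4 and 4. S100a4, a calcium-binding protein, stood at 6.22, 7.71, 8.66 and 7.66 in AD_TG, at 6.57, 5.14, 9.61 and 0.031 in AD_B6, with 7.01, 8.94, 8.98 and 8.55 in SJL_B6. For S100a4 the difference was 2.22 for AD_TG against AD_B6 (SE 1.59) and -3.03 for AD_B6 against SJL_B6 (SE 1.59), with adjusted p-values of 0.874 and 0.869 in limma. Without AD_B6 replicate 4, listed at 0.031, these were 0.46 and -1.26, and with the covariate they were 4.09 and -4.74. In AD_B6 5 were higher and 3 lower than in SJL_B6 (median 0.08 beside -0.31). Centring gave 6 and 2, and the covariate 4 and 4. In AD_TG 4 were higher and 4 lower than in SJL_B6 (median 0.06 beside 0.08). Hspa1b, an inducible chaperone, stood at 9.07, 9.76, 9.35 and 10.23 in AD_TG and at 8.82, 8.33, 8.15 and 7.92 in SJL_B6, higher in every AD_TG library, with a difference of 1.2995 (SE 0.70, adjusted p = 0.999 in limma). Of all genes tested, 1.46% held such a position.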

How the data were processed

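RNA of cells sorted from mouse meninges was measured in 12 libraries, made with a Lexogen Quant-Seq kit per the labels' protocols. Each library has 1 deposited file of log2 values, listed by gene symbol. Their form, log2(x + 1) of scaled amounts with linear totals of 6216992 to 7872830, was read from the values, and the scaling and counting methods are not given in the sources used here. The submitters' processing notes name Bowtie2, bedtools and hg19, a human build, although the organism and symbols are those of the mouse, so no coordinates of the files were used. RefSeq (GRCm38.p6) served for promoters and GENCODE M21 for overlapping genes.

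Each file held 23282 entries, and for 35 symbols with several entries the one with the highest mean was kept (44 left out). Of values below 20, 90.8 to 100% lay within 0.15 of a whole number of read steps. The 11955 genes that reached 10 on the linear scale in 4 or more libraries entered a limma fit (version 3.58.1, R 4.3.3; lmFit, then eBayes with trend) of all 12 libraries, two-sided. Adjustment was by Benjamini-Hochberg over all genes tested. The fit was also run on values shuffled between libraries within each gene, with known differences added in AD_TG. These went only into genes of higher mean level than Nfatc1, Nfatc2 and Nfatc4, so the run does not speak for such members. No 2 libraries were identical. The median correlation of 2 libraries across genes was 0.468 where they shared a group and 0.469 where they did not.

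The members, lists and tests were chosen with earlier results of these data known. Named are the 5 members, and per list and comparison the gene with the smallest unadjusted p. Likeness was sought for members with reads in at least 9 libraries, and the 3 genes with the highest Pearson correlation are given. Alternatives covered filter, pseudocount, scaling, centring, a replicate block, libraries in the fit, robust eBayes, summed entries, leaving out each library and, added after seeing the data, the number of genes with reads as a covariate.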

Additional observations from a re-analysis of the deposited data

Results flagged for a closer look

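In groups of 4, a library was set apart where its gap to the nearest other library, divided by the group's whole range, was above Dixon's 95% critical value. Of 57 groups looked at, 5 met this. A rate of about 1 in 20 holds for normally distributed values, and these values have a floor at 0. The groups also include pathway genes named for the smallest unadjusted p in these data. So the 5 cannot be set against that rate. Nfatc2 in SJL_B6 replicate 1 stood at 2.80, with the other 3 libraries at 8.32 or higher. Nfatc4 in AD_TG replicate 2 was listed at 0, with the others at 6.82 or higher. Nfatc4 in AD_B6 replicate 3 stood at 0.75, about 1 read, where the others had none. Akap5 in AD_TG replicate 3 stood at 11.40, below the other 3 libraries. Homer2 in AD_TG replicate 4 stood at 8.98, above the other 3.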

How the results depend on the processing

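Under every alternative run, 0 genes were called in each comparison, and no NFAT gene passed (lowest adjusted p 0.666, for Nfatc4 in AD_B6 against SJL_B6). Nfatc4 kept its direction against AD_B6 throughout. Leaving out 1 library gave 4.66 to 7.29 for AD_TG against AD_B6 and -7.67 to -5.02 for AD_B6 against SJL_B6. No single library could turn it, with AD_B6 at 0.75 or lower and 3 libraries of each other group at 6.65 or higher. Centring each library on its mean turned Nfatc3 to -0.10 in AD_TG against AD_B6 and Nfatc2 to 0.26 in AD_B6 against SJL_B6. These turns follow from the shift that centring gives every gene of a comparison alike. The covariate turned Nfatc1 to 0.60 in AD_TG against AD_B6, and the cause of that was not tested. Centring moved the median over all genes tested to -0.22 in AD_TG against AD_B6 and 0.16 in AD_B6 against SJL_B6, from 0.41 and -0.31. Scaling all libraries to 1 total moved it to 0.25 and -0.16. That scaling also raised the weight of the 1 added before the log. A pseudocount of 10 without scaling moved the median to 0.27 and -0.20, and the parts of total and pseudocount were not separated. At a linear value of 10 or more, Nfatc4 was present in 0 AD_B6 libraries in place of 1 and in 3 SJL_B6 libraries in place of 4, and Nfatc2 in 3 in place of 4 in both AD_B6 and SJL_B6.

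Leaving out 1 library turned the direction of a member in 17 cases and kept it in 163. The 163 include every case where the library left out belonged to the group outside the comparison. Such a case cannot change the difference, so the 163 overstate how steady the directions were. The values ran from -0.71 to 1.84 for Nfatc2 and from -0.19 to 1.36 for Nfatc3 in AD_TG against AD_B6. They ran from -1.63 to 1.47 for Nfatc2 and from -0.17 to 0.59 for Nfat5 in AD_B6 against SJL_B6. In AD_TG against SJL_B6 they ran from -0.54 to 2.32 for Nfatc1, from -0.66 to 1.26 for Nfatc2, from -1.13 to 0.41 for Nfatc3, from -2.25 to 1.18 for Nfatc4 and from -0.74 to 0.003 for Nfat5. Of the pathway genes named, Ppp3cb alone turned, to 0.031 in AD_B6 against SJL_B6 without AD_B6 replicate 1, with values of -3.44 to 0.031 over the libraries left out.

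With the replicate number as a block no call changed, and Nfatc4 had an adjusted p of 0.842 in AD_TG against AD_B6 and 0.833 in AD_B6 against SJL_B6 in limma. In their titles same-numbered libraries share only a number. The correlation of their deviations from group means was -0.015 to 0.067 over 12 pairs. Whether they shared a preparation was not tested. The precision limits all comparisons, since the 95% interval of a gene tested reached a median of 3.86 to either side.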
